A study of Mus musculus with 14 samples.

Results

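Mitochondria divide and fuse continuously, and the genes described here encode the core of that machinery. They were chosen by symbol from a list of 10 genes of mitochondrial fission and fusion: Mff, Dnm1l, Fis1, Mief1, Mief2, Mfn1, Mfn2, Opa1, Oma1 and Pink1. Of these, 9 were measured among 19505 named genes, each by 1 array row, and Pink1 was not analysed here. The choice was made by name, with earlier results of these data known.

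Liver RNA was profiled on Affymetrix arrays in 14 samples from male mice on a C57BL/6 background, aged 4 months by their labels, that were homozygous for floxed AMPK alpha1 and alpha2. All mice were put on a high-fat diet (60% of calories) at 6 weeks of age. At 10 weeks they received an AAV8 vector with the TBG promoter, which is active in hepatocytes, at 1e11 genome copies per mouse through the jugular vein. Metformin followed in every mouse for 3 weeks, at 50 mg/kg daily, and livers were taken after 16 h without food. The control group (6 samples) received the empty vector and the knockout group (8 samples) the Cre vector, so the comparison is knockout against control livers, all floxed, fat-fed and treated with the drug. Mice never given metformin are not part of what was analysed here. Nothing in the labels ties each sample to a separate animal, and p-values cover only the spread among these samples, some of which may be technical. Hepatocyte markers averaged between 12.4 and 13.0 on the log2 scale on every array. None of the 37 measured markers of hepatocytes, endothelium, stellate cells, macrophages, bile duct or lymphocytes passed the test between groups. Over all genes the share that passed was 0.702%. The SE of a marker's difference reached 0.38 (Krt19), so equal cell composition was not shown. All 4 lymphocyte markers were higher in knockout (median difference 0.19), while the medians of the other marker lists lay between -0.04 and 0.05. The lymphocyte markers read low, averaging 4.76 to 5.25 on control arrays and 5.02 to 5.37 on knockout arrays, with Cd3e lowest at 4.03.

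Fission is carried out by DRP1, a dynamin-like GTPase encoded by Dnm1l that is recruited from the cytosol and constricts the outer membrane. Mff, Fis1 and the MiD proteins (MiD51 from Mief1, MiD49 from Mief2) are its outer-membrane docking sites or adaptors. Fusion uses the mitofusins Mfn1 and Mfn2 on the outer membrane and OPA1 on the inner membrane, which the stress-activated protease OMA1 cleaves. AMPK, the energy-sensing kinase whose catalytic subunits were deleted, phosphorylates MFF protein and so promotes fission. That step acts on the protein, which RNA arrays do not measure.

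Clustering the correlations between arrays gave 2 array sets, unnamed in the labels, each with 3 control and 4 knockout samples. Controls 1 to 3 and knockouts 1 to 4 made up set 1, and the remaining arrays made up set 2. Correlations over all rows were 0.988 to 0.994 within a set and 0.951 to 0.963 across sets. Values are therefore given by set, and the difference between groups was fitted with the set as a term in limma. The deleted genes Prkaa2 and Prkaa1 fell in that fit, to 0.458 and 0.629 of the control level (limma adjusted p = 1.92e-06 and 0.0302), in 8 of 8 knockout samples against every control of the same set, and did not pass without the set term (adjusted p = 0.519 and 0.987). Markers of every cell type but hepatocytes were low in controls 1 and 4 against the other controls within each set. The mean was -1.17 and -0.69 for endothelium, -0.84 and -0.34 for macrophages, -0.64 and -0.14 for bile duct, -0.46 and -0.10 for stellate cells and -0.23 and -0.18 for lymphocytes. Hepatocyte markers were at 0.04 and 0.01, and without these 2 arrays 0 of the 9 genes below passed either. Among the hepatocyte markers Alb, Ttr, Apoa1 and Serpina1a averaged 13.4 to 13.7, near the highest value on any array (13.8). Whether signal at that level still follows the amount of RNA was not tested. In bulk tissue fewer cells of a type and less RNA per cell cannot be told apart.

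No fission or fusion gene passed the test between knockout and control livers. In the limma fit 0 of the 9 passed an adjusted p of 0.05, against 0.702% of all genes tested (137 of 19505). At an unadjusted p under 0.05 the count was also 0 of 9, against 10.4% of all genes. Differences, knockout minus control, ran from -0.06 for Mief2 to 0.15 for Fis1, with 5 positive and 4 negative and a median of 0.025, against 0.0016 over all genes. All 9 of the 95% intervals held 0, and together they ran from -0.30 to 0.30, that is from 0.813 to 1.23 of the control level. A gene of this group would have passed at the p-value of the last gene called if its difference had reached between 0.28 (Opa1) and 0.50 (Mief2), or 1.21-fold to 1.42-fold, given its own standard error. Estimated differences smaller than these could not be called in this fit with 14 arrays. The bounds apply to the estimate and do not give the power to find a true change of that size.

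**Figure D1:**
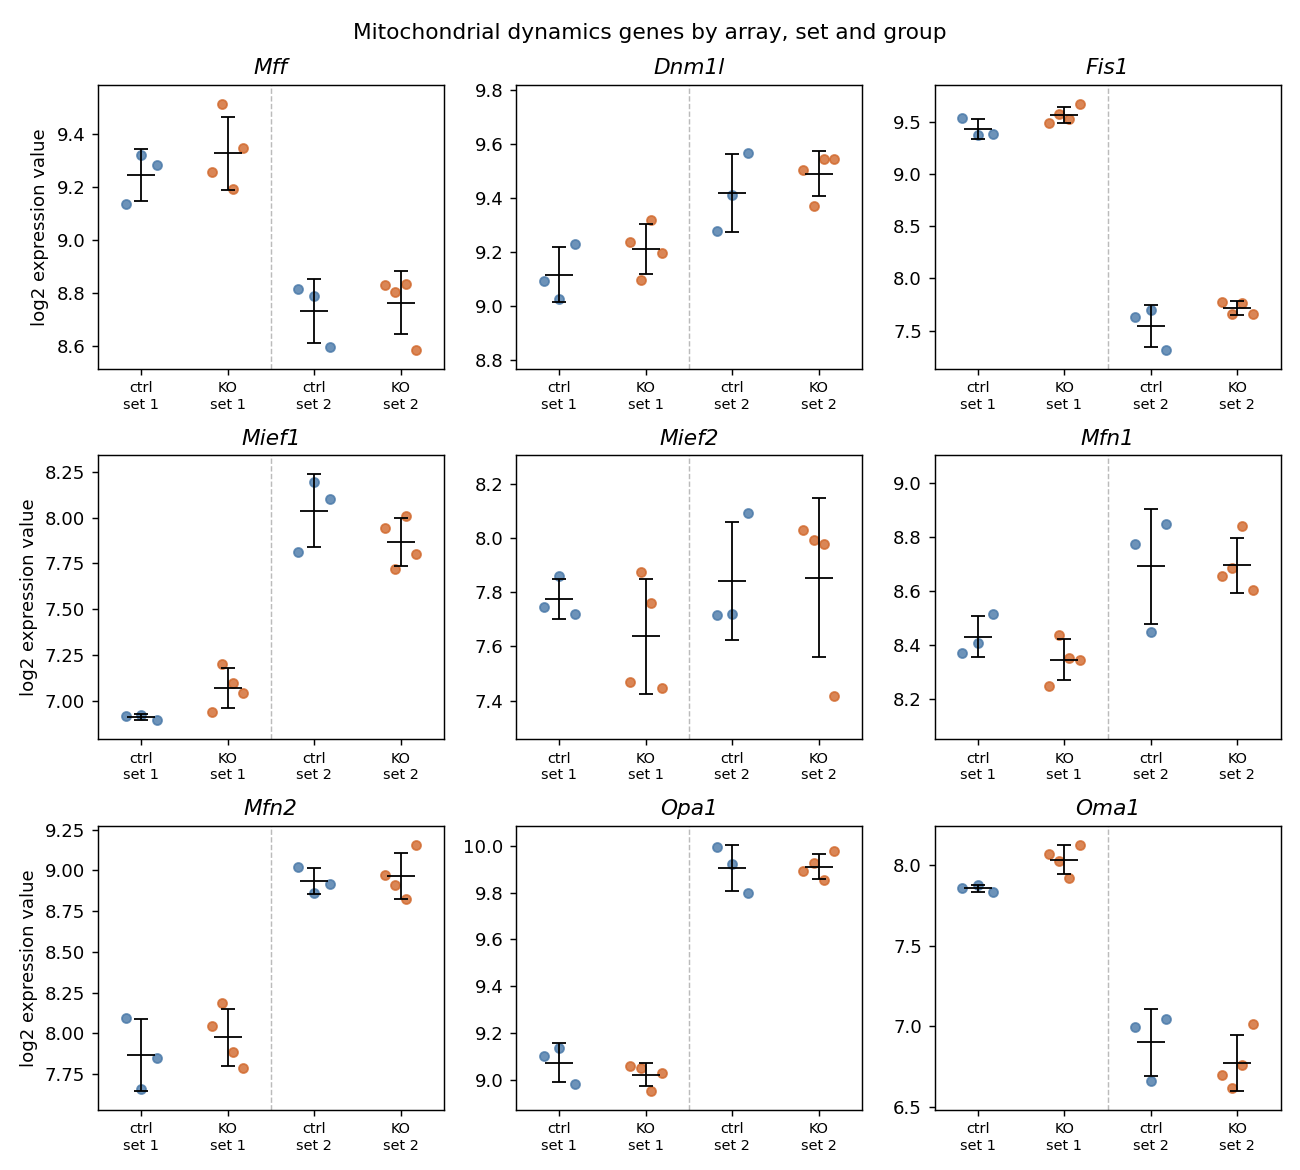
Log2 expression value of each of the 9 genes (vertical axis, its own scale per panel) on every array, split by array set and group; points are arrays (blue control, orange knockout), bars the mean and SD of 3 control or 4 knockout samples. The step between sets is plain in the panels of Fis1, Oma1, Mfn2, Mief1, Opa1 and Mff, while in that of Mief2 the values of all 4 columns overlap.

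The fission genes come first. Mff, the main outer-membrane receptor for DRP1 and an AMPK substrate, read 9.14, 9.32 and 9.28 in controls 1 to 3 and 9.26, 9.51, 9.19 and 9.35 in knockouts 1 to 4. In set 2 it read 8.81, 8.79 and 8.60 in controls 4 to 6 and 8.83, 8.80, 8.83 and 8.59 in knockouts 5 to 8. The groups overlapped in both sets, and the lowest knockout value of set 2, in knockout 8, lay just below the lowest control. The difference was 0.06 ± 0.07 (SE, n = 6 and 8; 95% interval -0.10 to 0.21; limma adjusted p = 0.879), or 1.04-fold with an interval from 0.931 to 1.16. It was 0.08 in set 1 and 0.03 in set 2.

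Dnm1l, the gene for the GTPase itself, read 9.09, 9.03 and 9.23 in controls 1 to 3 and 9.24, 9.10, 9.32 and 9.20 in knockouts 1 to 4. In set 2 the controls read 9.28, 9.41 and 9.57 and the knockouts 9.50, 9.37, 9.54 and 9.54. Knockout and control values mixed in both sets, and 2 of 8 knockout samples exceeded every control of their own set. The difference was 0.08 ± 0.07 (SE; 95% interval -0.06 to 0.23; limma adjusted p = 0.751).

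Fis1, an outer-membrane adaptor that mitochondria share with peroxisomes, had the largest difference of the 9. It read 9.54, 9.38 and 9.39 in controls 1 to 3 against 9.49, 9.57, 9.53 and 9.67 in knockouts 1 to 4, and 7.63, 7.69 and 7.32 in controls 4 to 6 against 7.77, 7.66, 7.77 and 7.65 in knockouts 5 to 8. No knockout sample lay below the lowest control of its set and 4 of 8 lay above the highest, yet the groups overlapped in each set. The difference was 0.15 ± 0.07 (SE; 95% interval -0.0025 to 0.30; 1.11-fold), with an unadjusted p of 0.0535 and a limma adjusted p of 0.493. It was 0.13 in set 1 and 0.17 in set 2. Across the alternatives the adjusted p lay between 0.339 and 1. The unadjusted limma p lay between 0.0297 (without control 5) and 0.764 (no set term). Without control 5 the difference was 0.18, and without control 6, the lowest array, it was 0.10.

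Mief1 and Mief2 encode the adaptors MiD51 and MiD49, which can recruit DRP1 without MFF. Mief1 read 6.92, 6.92 and 6.89 in controls 1 to 3 and 6.94, 7.20, 7.10 and 7.04 in knockouts 1 to 4, so the groups of set 1 did not overlap. In set 2 the order turned, with 7.81, 8.20 and 8.10 in controls and 7.94, 7.72, 8.01 and 7.80 in knockouts, which overlapped. The difference was 0.16 ± 0.09 in set 1 and -0.17 ± 0.14 in set 2 (SE), and -0.0053 ± 0.09 over both (95% interval -0.19 to 0.18; limma adjusted p = 0.995). The difference between the sets' differences was -0.33 (95% interval -0.67 to 0.0093; unadjusted p = 0.0559, limma adjusted p = 0.998 for the interaction).

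Mief2 was the most variable of the 9 within sets and groups, with a residual SD of 0.22. It read 7.75, 7.86 and 7.72 in controls 1 to 3, 7.47, 7.88, 7.76 and 7.45 in knockouts 1 to 4, 7.72, 7.72 and 8.09 in controls 4 to 6, and 8.03, 7.99, 7.98 and 7.42 in knockouts 5 to 8. The 3 lowest values belonged to knockouts 1, 4 and 8, and the other 5 knockout samples lay within or near the control range. The difference was -0.06 ± 0.11 (SE; 95% interval -0.30 to 0.17; limma adjusted p = 0.912).

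**Figure D2:**
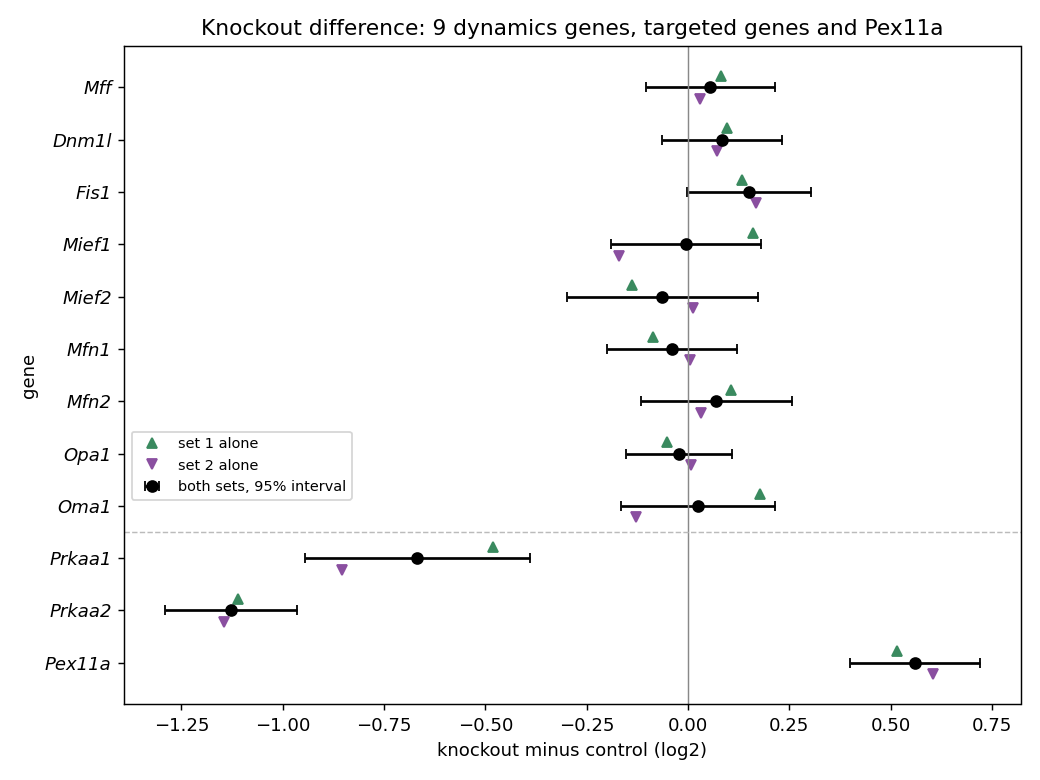
Knockout minus control difference on the log2 scale (horizontal axis) for the 9 genes and, under the dashed line, the deleted genes Prkaa1 and Prkaa2 and the peroxisome division gene Pex11a; black points are the fit over both array sets with 95% intervals, triangles each set alone. Intervals of all 9 genes hold 0 and stay between -0.30 and 0.30, whereas those of the 3 genes under the line do not hold 0.

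The fusion genes stayed within similar bounds. Mfn1, the mitofusin that tethers and fuses outer membranes, read 8.37, 8.41 and 8.51 in controls 1 to 3 and 8.25, 8.44, 8.35 and 8.34 in knockouts 1 to 4. Set 2 gave 8.77, 8.45 and 8.85 in controls and 8.66, 8.69, 8.84 and 8.60 in knockouts. In set 1, 3 of the 4 knockout samples lay below every control, while in set 2 all knockout samples lay inside the control range. The difference was -0.04 ± 0.08 (SE; 95% interval -0.20 to 0.12; limma adjusted p = 0.922).

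Mfn2, the mitofusin that also links mitochondria to the endoplasmic reticulum, read 8.10, 7.66 and 7.85 in controls 1 to 3 and 8.04, 8.19, 7.88 and 7.79 in knockouts 1 to 4. Controls 4 to 6 gave 9.02, 8.86 and 8.91 and knockouts 5 to 8 gave 8.97, 8.91, 8.83 and 9.16. The groups overlapped in both sets, and the highest array of each set was a knockout. The difference was 0.07 ± 0.09 (SE; 95% interval -0.12 to 0.26; limma adjusted p = 0.862).

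Opa1, the inner-membrane fusion GTPase that also shapes cristae, was the steadiest of the 9, with a residual SD of 0.07 that only 1.56% of all genes fell under. It read 9.10, 9.14 and 8.98 in controls 1 to 3 and 9.06, 9.05, 8.95 and 9.03 in knockouts 1 to 4, then 9.99, 9.92 and 9.80 in controls 4 to 6 and 9.89, 9.93, 9.85 and 9.98 in knockouts 5 to 8. Knockout values were inside the control range in set 2, and in set 1 only knockout 3 lay just under it. Its difference of -0.02 ± 0.06 (SE; 95% interval -0.15 to 0.11; limma adjusted p = 0.951) had the narrowest interval of the group, from 0.900 to 1.08 of the control level.

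Oma1, the protease that cuts OPA1 when the inner membrane loses its potential, showed opposite orders in the sets, as Mief1 did. It read 7.86, 7.88 and 7.83 in controls 1 to 3 and 8.07, 8.03, 7.92 and 8.13 in knockouts 1 to 4, which did not overlap. In set 2 the controls read 6.99, 6.66 and 7.04 and the knockouts 6.69, 6.62, 6.76 and 7.01. The difference was 0.18 ± 0.09 in set 1 and -0.13 ± 0.14 in set 2 (SE), and 0.02 ± 0.09 over both (95% interval -0.16 to 0.21; limma adjusted p = 0.964). The sets' differences differed by -0.31 (95% interval -0.66 to 0.05; limma adjusted p = 0.998 for the interaction).

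Mief1 and Oma1 were thus the 2 of 9 genes whose groups did not overlap in set 1, against 9.58% of all genes, and no gene of the 9 was without overlap in set 2, against 7.51% of all genes, or in both sets, against 1.31%. In the interaction test 0 of the 9 passed, adjusted or unadjusted, against 0 and 4.83% of all genes. The sign of the difference was the same in both sets for 4 of the 9, namely Mff, Dnm1l, Fis1 and Mfn2. By role, the 5 fission genes had a median difference of 0.06 and the 3 fusion genes of -0.02.

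**Figure D3:**
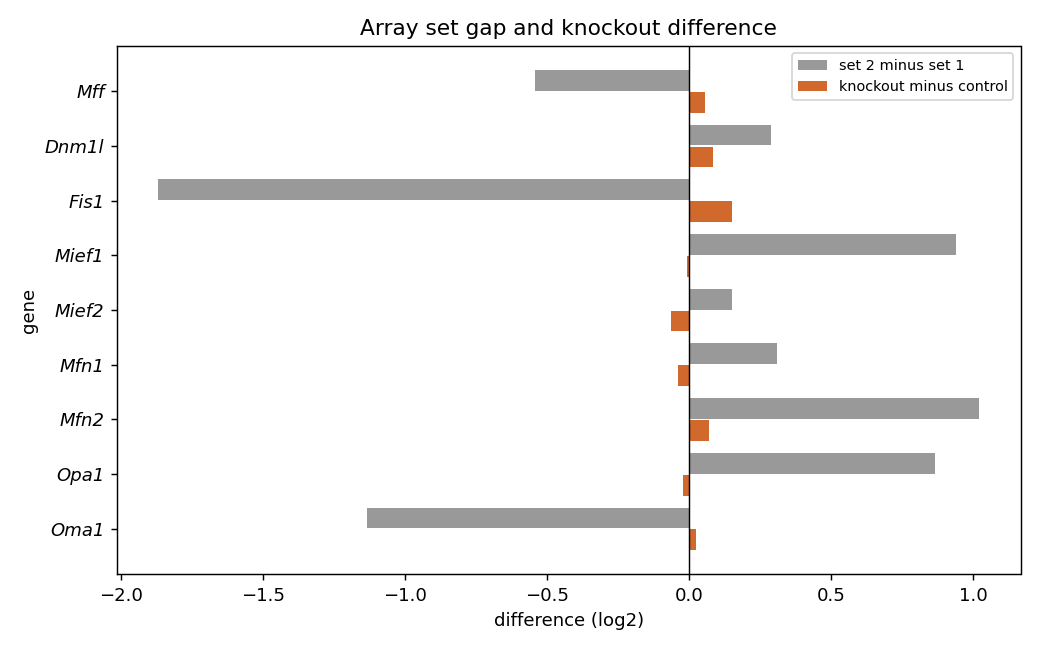
Gap between array sets (grey bars, set 2 minus set 1) and difference between groups (orange bars, knockout minus control) for each of the 9 genes, both on the log2 scale from the same fit. Every grey bar is longer than its orange bar, with Fis1 furthest below 0 at -1.87 and Mfn2 furthest above at 1.02.

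In the fit over both sets, the gap between array sets was larger in size than the difference between groups for each of the 9 genes. For Mief2 the gap was small, and its group means in set 1 (7.78 and 7.64) lay further apart than its control means in the sets (7.78 and 7.84). The gap was lower in set 2 for Fis1 (-1.87), Oma1 (-1.13) and Mff (-0.54) and higher in set 2 for Mfn2 (1.02), Mief1 (0.94), Opa1 (0.87), Mfn1 (0.31), Dnm1l (0.29) and Mief2 (0.15). Fis1 signal thus differed 3.65-fold between the sets and 1.11-fold between the groups. Gaps of over 1 were seen in 3 of the 9 genes, against 11.0% of all genes. In the order of the 4 mean levels of each gene, control and knockout of the same set were always neighbours, and none of these neighbours differed past the threshold. Since each set holds both groups in the same proportion, the gap does not enter the difference between groups. It widened the spread in the fit without the set term, where the SE was 0.49 for Fis1 and 0.24 for Opa1 and 0 of the 9 genes passed (0 of all genes; 3.36% at an unadjusted p under 0.05, again 0 of the 9). The sets were found from these same values, so the gaps are a description with no test.

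Among themselves the 9 genes ran together in some pairs and opposite in others once the mean of each set was removed. Over the 36 pairs and 14 arrays the median Pearson r was 0.0037, 18 pairs were positive, and the range was -0.76 to 0.56. As deposited, with the set gap left in, the median size of r was 0.831, against 0.221 with set means removed. The widest pair was Dnm1l and Opa1, whose levels ran opposite to each other within sets (r = -0.76, Spearman's rho = -0.71). That r was -0.88 in set 1 and -0.65 in set 2 (7 arrays each), and -0.61 without the 2 arrays farthest from the Dnm1l median. With the set gap left in, r for this pair was 0.76. Mief2 and Mfn1 ran together (r = 0.56; 0.63 and 0.53 in the sets), as did Mff and Fis1 (r = 0.47; 0.19 and 0.70 in the sets). Mff and Dnm1l ran opposite (r = -0.43; -0.34 and -0.54 in the sets), as did Mief1 and Opa1 (r = -0.49). With the set gap left in, r was -0.86 for Mff and Dnm1l and 0.93 for Mief1 and Opa1. It was then 0.59 for Mief2 and Mfn1 and 0.94 for Mff and Fis1. These correlations are over the same arrays, the pairs named are among the larger of the 36, and no test was made.

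**Figure D4:**
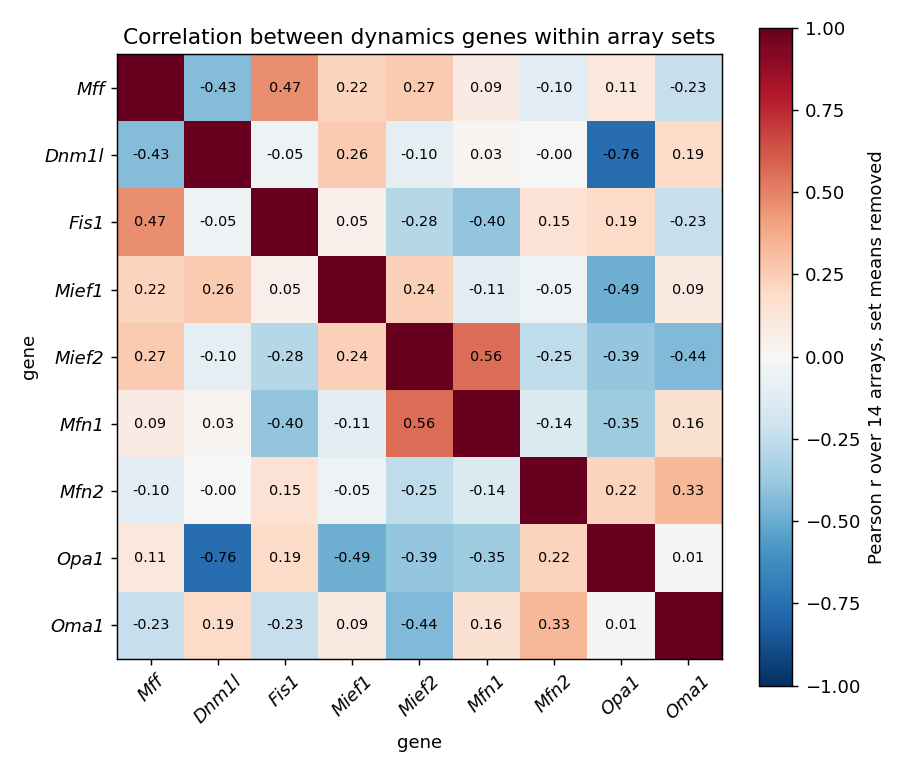
Pearson correlation between the 9 genes over 14 arrays after subtracting the mean of each array set, with genes on both axes and colour from -1 (blue) to 1 (red). Dnm1l with Opa1 is the deepest blue cell (-0.76) and Mief2 with Mfn1 the deepest red off the diagonal (0.56).

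For each gene the most similar pattern over the 14 arrays, set means removed, was sought among 12374 other genes with a mean of at least 5 in the higher group. For Mff these were Zfp692 (r = 0.88), Zfp457 (r = 0.85) and Tomm22, a subunit of the outer-membrane import pore (r = 0.85). The nearest gene was Kctd9 for Dnm1l (r = 0.89), Commd5 for Fis1 (r = 0.92), Rpn2 for Mief1 (r = 0.82) and Polr1a for Mief2 (r = 0.81). It was Rdh10 for Mfn1 (r = 0.92), Akirin2 for Mfn2 (r = 0.87), Zyg11a for Opa1 (r = 0.80) and Vps37b for Oma1 (r = 0.89). None of these 11 genes passed the test between groups (limma adjusted p from 0.281 to 0.985). They were picked as the highest of 12374 correlations over 14 arrays, and such a choice yields a high r even among unrelated genes. How high the best r would be by chance was not tested, so these genes are a description and not evidence of a link.

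The wider pathway was read from 5 lists of 52 genes, of which 47 were measured. The lists were chosen by name with earlier results of these data known, so the counts from them are a description. In the limma fit 1 of the 47 rose and 0 fell, against 0.431% and 0.272% of all genes, and the median difference was 0.06. None of the 11 fission regulators passed (7 positive, median 0.04). The largest differences there, among genes with a mean of at least 5 in the higher group, were Mtfr1, a fission regulator, at 0.11 ± 0.09, and Inf2, a formin that builds actin at division sites, at -0.09 ± 0.09 (SE). None of 15 measured genes of inner-membrane processing and cristae passed (8 positive, median 0.07). Parl, the rhomboid protease of the inner membrane, was at 0.19 ± 0.10 and Mtx2, a metaxin of the import and cristae-linking complex, at 0.15 ± 0.09. None of 7 measured fusion and transport partners passed, with Myo19, a myosin on mitochondria, at 0.11 ± 0.09 and Trak1, a motor adaptor, at 0.09 ± 0.07 (SE).

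Mitophagy genes, which clear divided mitochondria, had 8 of 12 measured members positive and a median of 0.06, and 0 passed. Pgam5, a mitochondrial phosphatase, had a difference of 0.22 ± 0.09 (SE; 95% interval 0.03 to 0.40) and Sqstm1, the autophagy receptor p62, of 0.20 ± 0.08 (95% interval 0.03 to 0.38). Their limma adjusted p were 0.377 and 0.385. The gene that rose was Pex11a, which elongates peroxisomes before the DRP1 machinery divides them. It read 10.3, 10.3 and 10.4 in controls 1 to 3 and 10.7 to 11.1 in knockouts 1 to 4, and 9.58 to 9.76 in controls 4 to 6 and 10.1 to 10.4 in knockouts 5 to 8. All 8 knockout samples lay above every control of their set. Pex11a rose by 0.56 ± 0.08 (SE; limma adjusted p = 0.00469; 1.47-fold), and its adjusted p was 1 without the set term. Mff, Dnm1l and Fis1, which act on peroxisomes as well as mitochondria, had the differences of 0.06, 0.08 and 0.15 given above, and Pex11g, another member of the peroxisome family, had 0.04 ± 0.08 (SE). Whether these differences differ from that of Pex11a was not tested.

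**Figure D5:**
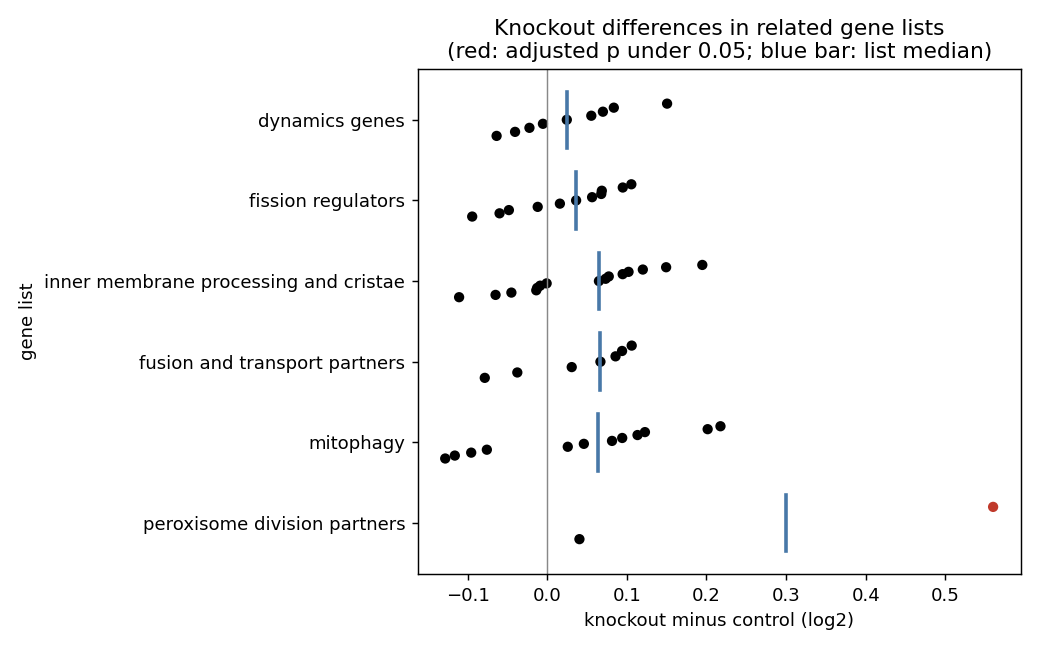
Knockout minus control difference on the log2 scale (horizontal axis) of each measured gene in the 9 dynamics genes and 5 related lists (rows); the red point passed an adjusted p of 0.05, black points did not, and blue bars are list medians. Only Pex11a at 0.56 is red, and all other points lie between -0.13 and 0.22.

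The promoters of the 9 genes were also read. RefSeq windows of 300 bases (250 before to 50 after a start site, GRCm38.p6) were found for all 9, as 14 windows. Their GC content ran from 49.0% to 70.3% with a median of 58.8%, against a median of 52.7% over 32817 windows. The binding site of NRF1, a nuclear factor known for switching on genes of mitochondrial function, was searched on both strands as GCGC and TGCGC with 1 free base between them. It was found in 2 of the 14 windows, against 4.59% of all windows. They belonged to Opa1 and to Oma1, the protease that cuts the OPA1 protein, and the 100 bases before each start site are shown because these members share that motif, which is in capitals.
Opa1 (chr16:29579234-29579333, + strand): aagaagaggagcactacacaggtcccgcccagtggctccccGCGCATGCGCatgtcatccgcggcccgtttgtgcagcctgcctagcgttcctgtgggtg
Oma1 (chr4:103313746-103313845, + strand): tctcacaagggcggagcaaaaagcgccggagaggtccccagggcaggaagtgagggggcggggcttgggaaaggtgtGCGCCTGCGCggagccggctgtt
The match lay at -59 to -50 in Opa1 and at -23 to -14 in Oma1, counted from the start site. The E-box CACGTG was found in 1 of the 14 windows, that of Mief2 (7.15% of all windows), and the CCAAT box (CCAAT) in 6 of 14, in Mff, Dnm1l, Fis1, Mief2, Mfn1 and Opa1 (37.4% of all windows). The cAMP response element TGACGTCA (1.79% of all windows) and the PPAR-type repeat, AGGTCA given again after 1 free base (0.0396%), were in none of the 14 windows. These letters are a description of the windows. Opa1 and Oma1 had an r of 0.0096 between their levels within sets and of -0.96 with the set gap left in. Whether the motif bears on their levels was not tested.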

How the data were processed

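Liver RNA was labelled with the WT PLUS kit, per the labels' protocols. The deposited log2 values were made with RMA in Partek by the authors, per the submitters' processing notes, which give no versions. The log2 scale was inferred from the values (2.13 to 13.8), and the genome build and probe filters are not given in the sources used here. Intensities give no read depth, so the number of arrays limits the precision. Of 22206 rows, 19572 had 1 gene symbol, updated by gene identifier; 55 genes had several rows, and the row with the highest mean was used. This left 19505 genes with no filter on level.

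The group difference was fitted across all genes with limma 3.58.1 under R 4.3.3 (lmFit, then eBayes), using an array set term, 11 residual degrees of freedom and Benjamini-Hochberg adjustment over all genes. Sets came from average-linkage clustering of array correlations. All members were named, plus, per list, genes past the threshold and the 2 largest differences among genes with a mean of at least 5, and the most similar gene per member (3 for Mff). The members, lists and fit were chosen with earlier results of these data known. The fits were tested on simulated data. The descriptions of knockouts 7 and 8 repeat the numbers of knockouts 5 and 6. Their values were not identical, but repeat arrays of the same liver would not be identical either. Over all rows r was 0.989 for knockouts 5 and 7 and 0.991 for 6 and 8. It was 0.990 for 5 and 6 and 0.991 for 7 and 8. Whether these are repeat arrays cannot be told from the labels. All 4 were kept as samples in the main fit, which counts them as separate. Alternatives are given in the closing section.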

Additional observations from a re-analysis of the deposited data

Results flagged for a closer look

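Knockout 8 stood apart from the other knockout samples of set 2 for 2 genes. Its Mff value was 8.59 against 8.80 for the next lowest, and its Mief2 value was 7.42 against 7.98. Of 36 groups of samples examined for the 9 genes these 2 had such a gap. The groups were all controls, all knockouts and the knockouts of each set, so they share arrays. Those over both sets hold the set gap, which widens their range. The nominal chance rate of 1 in 20 is therefore no measure of these flags. Without knockout 8 the difference of Mff was 0.08 and that of Mief2 -0.00024, and neither passed the threshold.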

How the results depend on the processing

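In all 28 alternatives that gave values for the 9 genes (252 values) none passed an adjusted p of 0.05, and 17 values had the other sign. For Mief1 the sign turned with knockout 5 averaged with 7 and 6 with 8 (0.024), without knockouts 7 and 8 (0.0086), with array weights (0.016) and in set 1 alone (0.16). In set 2 alone it turned for Mief2 (0.012), Mfn1 (0.0048), Opa1 (0.0066) and Oma1 (-0.13), and without controls 1 and 4 for Opa1 (0.0070). Leaving out 1 array at a time, Mief1 lay between -0.037 and 0.050 and Oma1 between -0.0083 and 0.075, while Mff, Dnm1l, Fis1 and Mfn2 stayed positive and Mief2, Mfn1 and Opa1 negative.

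Replicate numbers were not used to pair the samples in the main fit. Deviations from the group means correlated at 0.689 to 0.748 for the 5 numbers whose arrays share a set. For number 4, whose arrays do not, they correlated at -0.694. Deviations from the group and set means correlated at 0.014 to 0.079. Samples of unlike number were not compared in this way, so whether the numbers mark pairs was not tested. With the replicate number as a block (knockouts 7 and 8 drop out) Mfn2 was at -0.10, Fis1 at 0.46, Oma1 at 0.20, Mff at 0.17, Opa1 at -0.17, Mief1 at -0.15 and Mfn1 at -0.11 (adjusted p from 0.729 to 0.9), and 0 pathway genes and 1 gene of all passed. In that fit number 4 sets arrays of different sets against each other. With the block and the set term 0 and 2 passed. The count of all genes called, 137 in the main fit, was 0 without the set term (0 pathway genes), 26 without controls 1 and 4, 67 with the knockout pairs averaged, 12 without knockouts 7 and 8, 223 with dim genes filtered, 325 with trend and robust options and 242 at an adjusted p of 0.1. Leaving out single arrays gave 44 (control 4) to 132 (control 3). At an unadjusted p under 0.05 there were 2021 genes and 3 pathway genes. The causes of these shifts were not tested. In the main fit, estimated differences under about 1.21-fold were below what could be called for any of the 9 genes.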
